A study of Mus musculus with 13 samples.

Results

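The accessible regions around 5 genes of the Meis and Pbx families, Meis1, Meis2, Meis3, Pbx2 and Pbx3, were compared between the forebrain (FB) and the distal (DFL) and proximal (PFL) forelimb of mouse embryos, and between embryos with allele II1TDOM 542 (542) and the wild type (wt). A region belonged to a gene when its strongest summit lay within 100 kb of the gene body in the GENCODE M21 annotation of GRCm38 (mm10). Of 1356718 regions called in 13 libraries, with identical coordinates counted once, 1292 met this rule, with 338 around Meis1, 406 around Meis2, 138 around Meis3, 182 around Pbx2 and 228 around Pbx3. Among the 50000 strongest regions of each of the 12 libraries compared, which were joined where they overlapped, the 5 genes held 104 of 110794 joined regions, namely 29, 29, 15, 10 and 21 in the same order.

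Accessibility was measured by ATAC-seq, in which the Tn5 transposase inserts sequencing adapters into open chromatin. Embryos of strain B6CBAF1 came from crosses of heterozygous adults and were taken at E12.5, with 50000 cells per library and separate pools of embryos as the 2 replicates of each genotype and tissue. Allele 542 is homozygous and derives from 1 founder line, in which 1 copy of II1, a distal limb enhancer of the HoxD locus, was placed with an HBB promoter and a LacZ reporter into the regulatory domain on the telomeric side of the HoxD cluster (T-DOM) on chromosome 2. The wt libraries were mapped to mm10 and the 542 libraries to a genome that holds the insertion, so genotype and mapping genome cannot be told apart. A further wt DFL library, a new analysis of an earlier sample, was used only where it is named.

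MEIS and PBX proteins are homeodomain transcription factors of the TALE class, named after a loop of extra amino acids in the homeodomain. They bind DNA together, and they join HOX proteins as partners, which changes the sites that HOX proteins select. In the limb bud Meis1 and Meis2 are classical markers of the proximal part, where retinoic acid maintains them, whereas the distal part, the future hand, is marked by Hoxa13 and Hoxd13. Pbx proteins carry MEIS proteins into the nucleus and stabilise them, and Meis2 and Pbx3 are also known from neurons and their progenitors in the forebrain.

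The estimated depth was 37.5 to 70.7 M tags per library (M standing for mega), on average 54.5 M in wt and 45.5 M in 542. By tissue it was 40.2 to 54.5 M in DFL, 37.5 to 52.7 M in PFL and 51.4 to 70.7 M in FB. The part of depth in the comparisons with FB was not tested. Fewer cells of a kind and less signal per cell cannot be told apart in such bulk samples. The sum of folds around the limb mesenchyme genes Prrx1, Twist1 and Tbx5 was higher in both limb tissues than in FB for 3 of 3 genes by limma, and that around the forebrain genes Emx1, Emx2 and Neurog2 was lower in both for 3 of 3. Of all genes, 20% were called higher and 23.4% lower in DFL than in FB, and 24.1% higher and 19.8% lower in PFL. The distal markers Hoxa13 and Hoxd13 and the proximal marker Shox2 did not pass the test between DFL and PFL, at log2 differences of 0.09, 0.18 and 0.21 in the order named. Markers of other kinds of cells moved between DFL and PFL at 1 of 2 muscle genes, 2 of these 3 forebrain genes and 0 of 6 blood, endothelium and ectoderm genes, beside 13% of all genes called in either direction. Myod1 and Emx2 were lower in DFL than in PFL, at −0.98 and −0.62, and Neurog2 was higher, at 0.40. Against FB, the blood genes Gata1 and Klf1 were lower in both limb tissues, and Kdr, 1 of 2 endothelium genes, was higher. Of the 2 muscle genes, 1 was higher and 1 lower in DFL, and 1 was higher in PFL. Of the 2 ectoderm genes, 0 were called in DFL and 1 was lower in PFL. The part of these cells in the results was not tested.

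The loci differ in how much of the signal can be assigned to the gene itself. Meis1 (chr11:18879817-19018985, minus strand) had no other coding gene within its window, Meis2 (chr2:115863064-116065839, minus strand) had BC052040 and Pbx3 (chr2:34171457-34373142, minus strand) had Mapkap1. Meis3 (chr7:16175090-16186504, plus strand) shared its window with 9 other coding genes and Pbx2 (chr17:34591266-34597400, plus strand) with 12. The nearest coding start was the gene's own for 29 of 29 Meis1 regions, 25 of 29 Meis2 regions and 18 of 21 Pbx3 regions, but for 4 of 15 Meis3 regions and 1 of 10 Pbx2 regions. Values around Meis3 and Pbx2 are therefore mostly those of regions at other genes. In all, 50 of the 104 regions lay in an intron of their own gene, 23 between genes and 25 within 1 kb of an annotated start. At the limit of 100 kb, the outermost Pbx3 region inside lay 92.8 kb from the gene and the next one outside 105.6 kb, and for Meis1 these were at 99.5 and 102.2 kb, for Meis2 at 88.0 and 104.8 kb, for Meis3 at 99.9 and 108.0 kb and for Pbx2 at 74.2 and 179.9 kb.

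The sequences below are the 300 bases centred on the strongest summit of 6 regions, on the plus strand of GRCm38. They were chosen because the results turn on them. Regions are numbered along each gene in the direction of its transcription. Capitals mark matches, on either strand, to TGACAG (bound by MEIS), TGATTNAT (PBX with HOX), CAATAAA (HOX13), CAGATG (an E-box of neural bHLH factors) or ACAAAG (SOX), and a match is not evidence of binding. Meis1 8 (chr11:19020346-19020645) has its summit 1.51 kb before the 5′ end of its gene, and Pbx3 2 (chr2:34372647-34372946) lies at the start of its gene. Both differed between DFL and PFL in tags over both genotypes together, Pbx3 2 mostly through the 542 libraries. Meis2 1 (chr2:116125801-116126100) was listed in DFL but not in PFL, Pbx2 7 (chr17:34641260-34641559) in PFL alone, and Meis1 6 (chr11:19074217-19074516) and Pbx3 10 (chr2:34260615-34260914) in FB alone.
Meis1 8: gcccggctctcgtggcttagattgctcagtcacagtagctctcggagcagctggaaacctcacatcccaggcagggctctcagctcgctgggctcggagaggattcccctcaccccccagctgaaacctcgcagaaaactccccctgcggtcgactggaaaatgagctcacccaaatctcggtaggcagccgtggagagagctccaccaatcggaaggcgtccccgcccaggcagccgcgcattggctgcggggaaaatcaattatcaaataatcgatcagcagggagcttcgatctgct
Pbx3 2: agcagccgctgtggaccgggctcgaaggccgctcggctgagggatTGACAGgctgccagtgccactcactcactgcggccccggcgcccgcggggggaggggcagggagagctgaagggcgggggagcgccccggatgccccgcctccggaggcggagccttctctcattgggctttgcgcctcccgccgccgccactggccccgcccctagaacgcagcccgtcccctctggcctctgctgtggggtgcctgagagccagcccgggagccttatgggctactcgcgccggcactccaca
Meis2 1: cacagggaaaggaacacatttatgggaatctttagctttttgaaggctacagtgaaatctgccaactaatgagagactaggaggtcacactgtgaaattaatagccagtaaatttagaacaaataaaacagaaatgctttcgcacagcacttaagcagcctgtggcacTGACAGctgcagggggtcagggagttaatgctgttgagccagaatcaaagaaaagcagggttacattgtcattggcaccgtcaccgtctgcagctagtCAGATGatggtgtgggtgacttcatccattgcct
Pbx2 7: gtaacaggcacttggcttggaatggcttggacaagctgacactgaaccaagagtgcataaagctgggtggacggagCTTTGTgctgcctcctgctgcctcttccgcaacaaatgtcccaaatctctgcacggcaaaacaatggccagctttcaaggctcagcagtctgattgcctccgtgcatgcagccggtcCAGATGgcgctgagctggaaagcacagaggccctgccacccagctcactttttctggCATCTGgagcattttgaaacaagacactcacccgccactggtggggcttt
Meis1 6: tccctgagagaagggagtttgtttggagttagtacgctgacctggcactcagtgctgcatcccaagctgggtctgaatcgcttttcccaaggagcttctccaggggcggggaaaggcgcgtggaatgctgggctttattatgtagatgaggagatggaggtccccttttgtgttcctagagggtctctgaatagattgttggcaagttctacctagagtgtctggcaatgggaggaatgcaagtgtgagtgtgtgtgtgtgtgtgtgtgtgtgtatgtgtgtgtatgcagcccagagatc
Pbx3 10: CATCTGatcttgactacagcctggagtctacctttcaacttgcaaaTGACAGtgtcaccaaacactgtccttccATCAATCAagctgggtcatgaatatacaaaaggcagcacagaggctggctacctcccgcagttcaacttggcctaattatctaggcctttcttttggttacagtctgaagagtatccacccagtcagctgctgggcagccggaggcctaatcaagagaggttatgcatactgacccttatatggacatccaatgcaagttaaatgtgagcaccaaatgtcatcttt

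In these windows Meis2 1 and Pbx3 2 held 1 match to TGACAG each, Meis2 1 also held an E-box, and Pbx3 10 held TGACAG, a TGATTNAT site on the minus strand and an E-box. Pbx2 7 held E-boxes on both strands and a SOX match, and Meis1 8 and Meis1 6 held none of the 5 motifs. Over all 104 regions TGACAG was found in 28 (26.9%), beside 21.9% of all 110794 regions in windows of the same length. TGATTNAT was found in 6 (5.77%, beside 5.02%), CAATAAA in 9 (8.65%, beside 7.09%), CAGATG in 19 (18.3%, beside 27.2%) and ACAAAG in 22 (21.2%, beside 24.9%). By gene, TGACAG was found in 8 of 21 regions around Pbx3, 9 of 29 around Meis2, 6 of 29 around Meis1, 4 of 15 around Meis3 and 1 of 10 around Pbx2.

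The first comparison asked how much accessible chromatin surrounds each gene in each tissue. Folds, the ratio of tags at a summit to the local background of the same library, were scaled to the library's median and summed over the listed regions of a window. Meis1, Meis2, Meis3 and Pbx3 had more of it in FB than in either limb tissue, and Pbx2 did not pass the test in either comparison. In the order wt replicates 1 and 2, then 542 replicates 1 and 2, which holds throughout, the Meis1 sums were 65.5, 63.1, 59.7 and 63.9 in DFL, 75.9, 65.2, 79.9 and 57.9 in PFL, beside 125.1, 112.7, 133.7 and 126.6 in FB. The FB libraries lay above all limb libraries, and the DFL and PFL libraries overlapped. For Pbx3, the sums were 36.4, 51.6, 52.4 and 34.4 in DFL, 50.8, 46.3, 50.8 and 47.7 in PFL, beside 111.9, 95.6, 114.0 and 122.5 in FB, with FB again above all limb libraries. Those of Meis3 were 74.5, 78.0, 82.6 and 94.0 in DFL, 82.2, 77.4, 95.5 and 89.5 in PFL, beside 120.8, 127.5, 123.2 and 124.6 in FB.

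Meis2, which is a proximal limb factor and is also expressed in the ventral forebrain, had sums of 64.3, 68.0, 82.5 and 74.2 in DFL, 66.1, 44.3, 51.4 and 69.5 in PFL, beside 93.4, 88.2, 110.1 and 89.5 in FB. Its lowest FB library exceeded its highest limb library by little, and DFL and PFL overlapped. Pbx2 had sums of 67.1, 67.3, 63.5 and 65.6 in DFL, 67.0, 69.6, 72.5 and 78.0 in PFL, beside 67.1, 65.6, 64.7 and 72.8 in FB, and all 3 tissues overlapped.

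**Figure D1:**
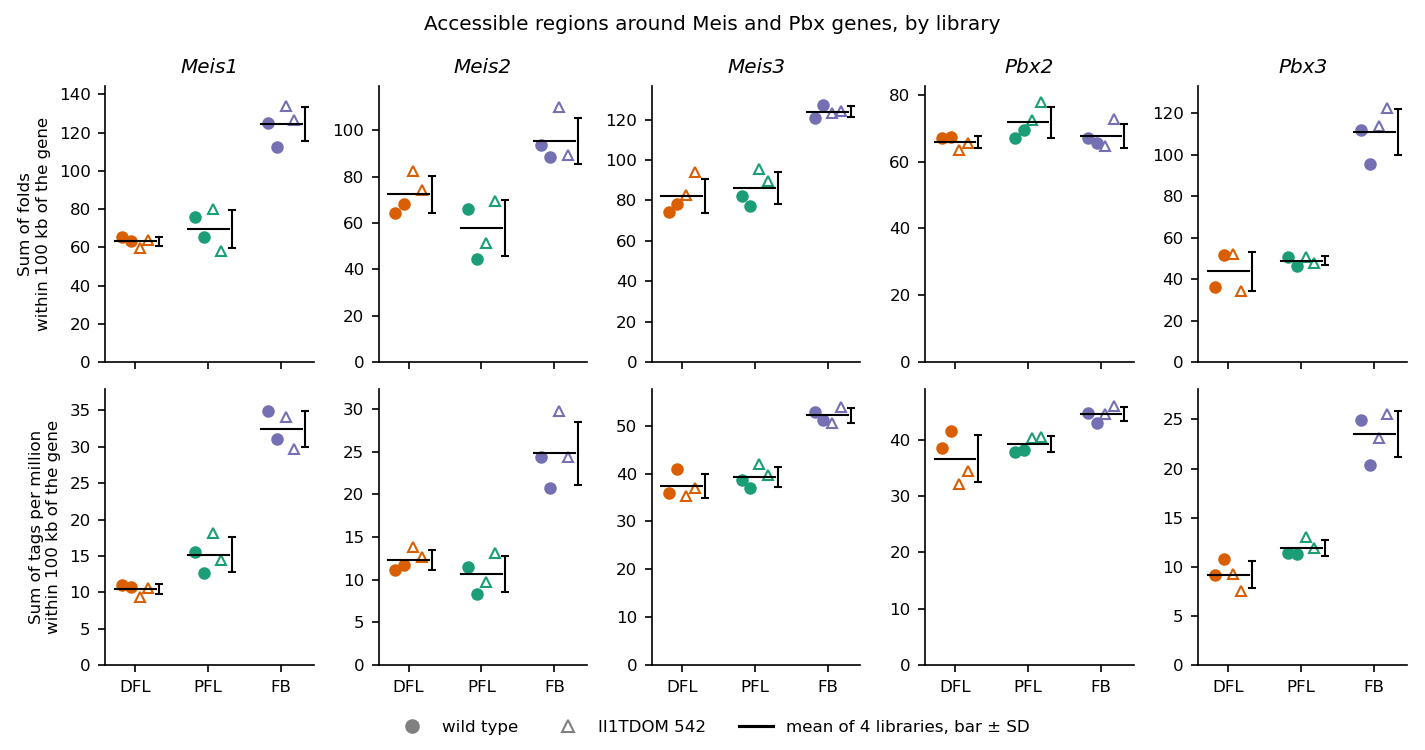
Sums of scaled folds (upper row, no unit) and sums of scaled tags per M (lower row) over the listed regions within 100 kb of each gene, by tissue. Each point is 1 library, filled circles are wt and open triangles 542, the line is the mean of 4 libraries and the bar is ± SD. For Meis1 the FB sums of folds lie between 112.7 and 133.7, above all limb libraries, and the tags per M of DFL (9.38 to 11.0) lie below those of PFL (12.6 to 18.2).

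With limma over 20151 coding genes and Benjamini-Hochberg adjustment, the sum of folds was lower in DFL than in FB for 4 of 5 genes, beside 43.4% of all genes called in either direction and 23.4% called lower. The log2 differences were −0.97 (SE 0.09) for Meis1, −0.40 (SE 0.13, adjusted p = 0.033) for Meis2, −0.59 (SE 0.05) for Meis3 and −1.35 (SE 0.14) for Pbx3. Pbx3 thus had 2.54 times and Meis1 1.96 times the sum of DFL in FB. The call for Meis2 was lost in 6 of 12 fits that left out 1 library, with an adjusted p of up to 0.116, namely without 542 DFL replicate 2, 542 FB replicate 1 (0.116, at a log2 difference of −0.32) or any 1 of the wt DFL and wt FB libraries. Pbx2 had −0.04 (SE 0.06). The median over the 5 genes was −0.59, beside −0.02 over all genes.

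PFL was lower than FB for the same 4 genes, beside 44% of all genes called and 19.8% called lower. The log2 differences were −0.84 (SE 0.09) for Meis1, −0.73 (SE 0.13) for Meis2, −0.52 (SE 0.05) for Meis3 and −1.16 (SE 0.14) for Pbx3, whereas Pbx2 had 0.08 (SE 0.06, adjusted p = 0.269). The median was −0.73, beside 0.02 over all genes. Both comparisons share the FB libraries. Each of these calls held in the 12 fits that left out 1 library, but that for Meis1 was lost with the 20000 strongest regions and that for Meis3 with a window of 10 kb.

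Between DFL and PFL, the comparison for which Meis genes are best known in the limb, none of the 5 genes passed the test on folds, beside 13% of all genes called in either direction. The log2 differences were −0.13 (SE 0.09) for Meis1, 0.33 (SE 0.13, adjusted p = 0.122) for Meis2, −0.07 (SE 0.05) for Meis3, −0.12 (SE 0.06) for Pbx2 and −0.18 (SE 0.14) for Pbx3, and 1 of 5, Meis2, had an unadjusted p under 0.05. Meis1 and Meis2 thus had opposite signs, and neither passed the test. Meis2 was called higher in DFL under 3 of 24 alternatives, at 0.48 without wt PFL replicate 1 (adjusted p = 0.041), 0.68 with folds of at least 5 (adjusted p = 0.016) and 4.07 with the 20000 strongest regions (adjusted p = 0.0021). Meis1 ranged from −0.25 to −0.0188 with 1 library left out. Over the other alternatives Meis1 ranged from −1.93 to 0.0053, where only the tag sums described below were called. The median was −0.12, beside −0.04 over all genes.

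Folds are relative to the surroundings of a summit, so the tags under each summit were also recovered from the deposited values. They were divided by the library's total, scaled to a common median between libraries as the folds were, and summed per window. This sum was chosen as a measure after the data had been seen. On this scale Meis1 and Pbx3 were lower in DFL than in PFL. The Meis1 sums per M tags were 11.0, 10.7, 9.38 and 10.6 in DFL, 15.5, 12.6, 18.2 and 14.4 in PFL, beside 34.9, 31.0, 34.1 and 29.7 in FB. No library of 1 tissue overlapped with one of another, in wt and in 542 alike. The Pbx3 sums were 9.19, 10.8, 9.31 and 7.49 in DFL, 11.4, 11.3, 13 and 11.9 in PFL, beside 25.0, 20.4, 23.2 and 25.6 in FB, again without overlap.

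By limma, the tag sums were lower in DFL than in PFL for 2 of 5 genes, beside 25.7% of all genes called and 20.1% called lower. Meis1 had a log2 difference of −0.50 (SE 0.09, adjusted p = 0.00215), or 1.41 times the DFL value in PFL, and Pbx3 had −0.35 (SE 0.09, adjusted p = 0.0144), or 1.27 times. Meis1 was called in each of 12 fits that left out 1 library, between −0.58 and −0.42. Pbx3 was not called without wt DFL replicate 1 (adjusted p = 0.067), wt PFL replicate 1 (adjusted p = 0.051) or 542 PFL replicate 1 (adjusted p = 0.055), nor without the scaling between libraries (−0.28, adjusted p = 0.165). Meis2 had 0.21 (adjusted p = 0.167), Meis3 −0.07 (adjusted p = 0.288) and Pbx2 −0.10 (adjusted p = 0.116). The median of −0.10 was close to the −0.09 of all genes.

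The tag sums of Meis2 were 11.1, 11.8, 13.8 and 12.6 in DFL, 11.5, 8.33, 9.71 and 13.1 in PFL, beside 24.4, 20.7, 29.7 and 24.3 in FB, so that the limb tissues overlapped and FB stood above both. Against FB, all 5 genes were lower in DFL on this scale, beside 43.7% of all genes called lower, and 60.6% called in either direction, with log2 differences from −1.55 (Meis1) to −0.28 (Pbx2). All 5 were lower in PFL as well, beside 30.3% called lower and 51.7% in either direction, from −1.15 (Meis2) to −0.18 (Pbx2). Over all genes the median shift was −0.13 in DFL and −0.04 in PFL. Meis3 had tag sums of 35.3 to 41.0 in DFL, 37.0 to 42.0 in PFL and 50.5 to 54.0 in FB. Pbx2 was the gene for which the scale changed the call, since its sums of 32.1 to 41.6 in DFL and 37.8 to 40.5 in PFL lay below 42.9 to 46.0 in FB.

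**Figure D2:**
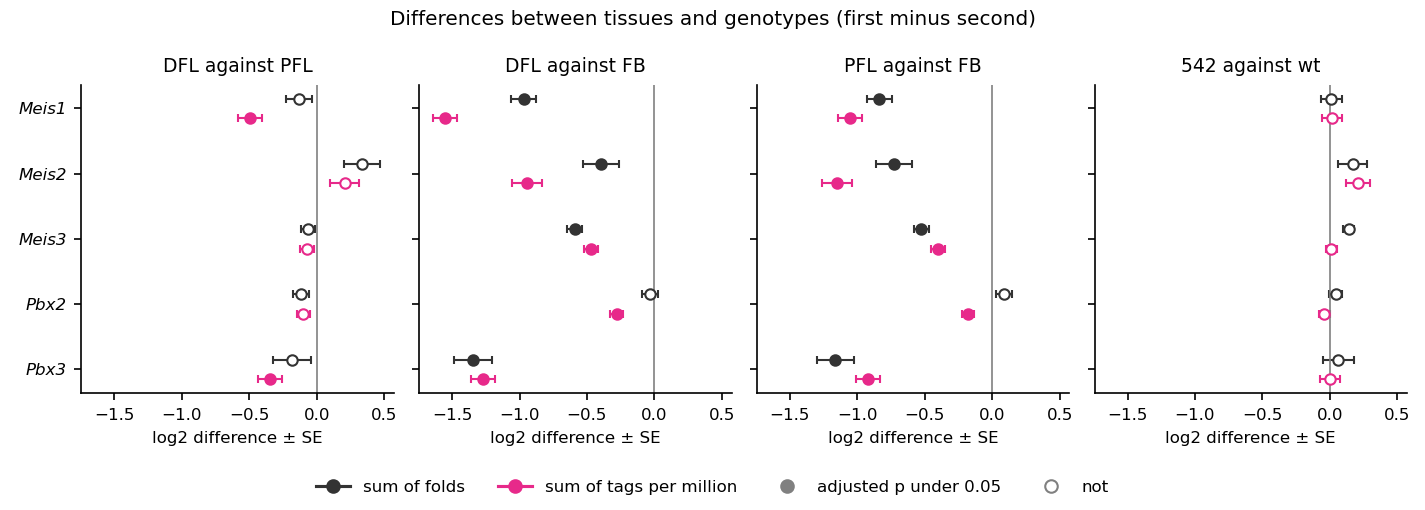
Log2 differences ± SE between tissues and between genotypes for the sums of scaled folds (dark) and the sums of scaled tags per M (pink) around each gene. Filled points have an adjusted p under 0.05 in limma over 20151 genes. Between DFL and PFL only the tag sums of Meis1 (−0.50) and Pbx3 (−0.35) are filled, and between 542 and wt none is.

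The difference between the scales was followed to single regions. Of the 104 regions, 20 were listed in all 12 libraries, 3 around Meis1, 2 around Meis2, 6 around Meis3, 7 around Pbx2 and 2 around Pbx3, and these could be tested one by one among 19303 such regions. With folds, 0 of 20 passed the limma test between DFL and PFL, beside 2.99% of all, and 4 had an unadjusted p under 0.05. With tags per M, 4 of 20 were lower in DFL and 0 higher, beside 11.5% of all called and 4.93% called lower. These were the 3 regions of Meis1 and the region at the start of Pbx3.

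The strongest region at the start of Meis1 (Meis1 8, chr11:19018621-19021151) reaches over the 5′ end of the gene, with its summit 1.51 kb before it. It held 1.71, 2.07, 2.2 and 1.79 tags per M in DFL, 3.55, 3.23, 4.30 and 3.71 in PFL, beside 6.84, 6.38, 6.0 and 5.83 in FB. The tissues formed separate steps, with PFL between DFL and FB in both genotypes. The log2 difference of DFL from PFL was −0.95 (SE 0.11, adjusted p = 3.6e-10 by limma), 1.94 times more in PFL, and it stayed between −1.05 and −0.85 when any 1 library was left out. The fold of the same region was 6.54, 7.43, 9.25 and 6.59 in DFL and 8.09, 8.10, 10.1 and 9.75 in PFL, overlapping, with a difference of −0.32 (SE 0.12, adjusted p = 0.167).

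The local background of this region, the tags expected under the summit from the surrounding sequence, moved with the tags. It was 0.246, 0.258, 0.214 and 0.251 per M in DFL, 0.421, 0.382, 0.403 and 0.357 in PFL, beside 0.640, 0.614, 0.601 and 0.596 in FB. The background thus had the same order of tissues as the summit, without overlap. It was recovered from the same fold and p-value as the tags. Because the fold is the ratio of tags to background, tags that differ at similar folds require a background that differs in the same order. The order of the background is therefore not a separate observation, and its part in the difference between the scales was not tested.

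Just past the 3′ end of Meis1 (Meis1 28, chr11:18876924-18879094), tags per M were 1.40, 1.36, 1.04 and 0.996 in DFL, 2.15, 1.84, 1.95 and 1.82 in PFL, beside 3.27, 4.60, 2.76 and 2.63 in FB, without overlap. The log2 difference of DFL from PFL was −0.73 (SE 0.14, adjusted p = 2.1e-04). Its folds differed by −0.21 (adjusted p = 0.430), and its local background was 0.132 to 0.177 per M in DFL and 0.208 to 0.251 in PFL. In the 3′ part of the gene (Meis1 27, chr11:18883143-18884055, in a UTR of Meis1), tags were 0.734, 0.931, 0.870 and 1.02 in DFL, 1.25, 1.08, 2.16 and 1.09 in PFL, beside 1.94, 1.40, 1.15 and 1.57 in FB. PFL exceeded DFL by little except in 542 PFL replicate 1, and the difference of −0.62 (SE 0.17, adjusted p = 0.0117) was not called without that library (adjusted p = 0.158), nor without wt DFL replicate 1 (0.066) or wt PFL replicate 1 (0.054).

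The start of Pbx3 (Pbx3 2, chr2:34371724-34373471) held 5.56, 5.11, 3.60 and 3.93 tags per M in DFL, 5.80, 5.28, 6.47 and 5.63 in PFL, beside 7.59, 6.49, 6.08 and 7.31 in FB. The 542 DFL libraries were the lowest, and wt DFL and wt PFL lay close together. Over both genotypes the log2 difference of DFL from PFL was −0.39 (SE 0.08, adjusted p = 8.2e-04 by limma), and it held with each library left out. It was more negative in 542 than in wt by −0.56 (SE 0.17). This interaction had an unadjusted p of 0.0016 and an adjusted p of 0.214 by limma. The difference over both genotypes thus lay mostly in the 542 libraries. The folds, 11.5 to 13.3 in DFL and 11.2 to 13.2 in PFL, differed by −0.01 (adjusted p = 0.973), and the local background was 0.412, 0.362, 0.292 and 0.287 in DFL and 0.499, 0.435, 0.465 and 0.405 in PFL.

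**Figure D3:**
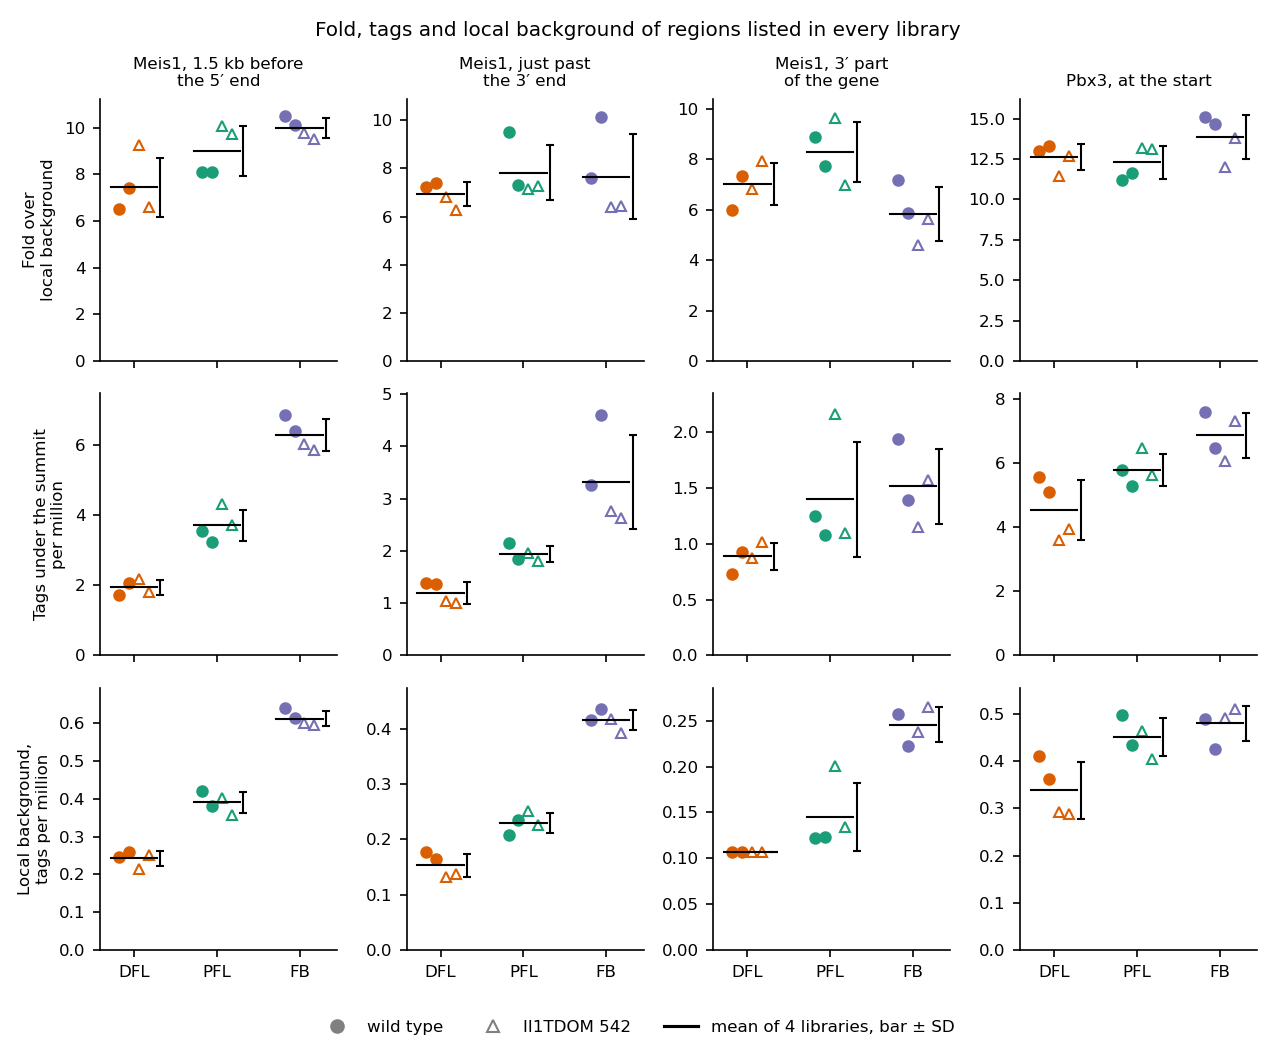
Fold over local background (top), tags under the summit per M (middle) and local background in tags per M (bottom) of 4 regions listed in all 12 libraries. Each point is 1 library, circles are wt and triangles 542, the line is the mean of 4 libraries and the bar is ± SD. At Meis1 8, tags and local background both step up from DFL to PFL to FB, with means of 1.94, 3.70 and 6.27 tags per M, whereas the folds of DFL and PFL overlap. The background was recovered from the same fold and p-value as the tags, so it is not independent of them.

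Against FB, folds of the 20 regions moved in both directions. In DFL 4 of 20 were called, beside 25.5% of all. Meis1 27 (0.44) and Meis3 4 at the start of Slc8a2 (0.32) were higher than in FB, and Meis3 3 at the start of Kptn (−0.29) and Meis3 12 at the start of Dhx34 (−0.20) were lower. In PFL 5 of 20 were called, beside 29.1% of all, the same 4 regions with 0.73, 0.43, −0.23 and −0.20, and Pbx2 2 at an annotated start of Notch4 with 0.26. With 1 library left out, Meis1 27 and Meis3 4 stayed called in 12 of 12 fits in PFL but in 8 of 12 in DFL (adjusted p up to 0.087 and 0.111). Meis3 12 stayed called in 11 of 12 fits in each, being lost without wt FB replicate 2. Meis3 3 stayed in 9 of 12 in DFL (adjusted p up to 0.0646) and in 2 of 12 in PFL (up to 0.115), and Pbx2 2 in 4 of 12 (up to 0.136). In DFL, Meis1 27 was lost without 542 DFL replicate 2, 542 FB replicate 1, wt DFL replicate 2 or wt FB replicate 2, Meis3 4 without 542 DFL replicate 1, 542 FB replicate 1, wt DFL replicate 2 or wt FB replicate 1, and Meis3 3 without 542 DFL replicate 1, 542 FB replicate 2 or wt FB replicate 2. In PFL, Meis3 3 was kept only without 1 of the 542 DFL libraries, and Pbx2 2 only without 1 of these, wt DFL replicate 2 or 542 PFL replicate 1. With tags per M, 11 of 20 were lower in DFL and 0 higher, beside 24.5% of all called lower and 46.1% in either direction, and 9 of 20 were lower in PFL, beside 22.6% and 44.6%. Meis1 27 and Meis3 4 thus changed sign in DFL, to −0.56 and −0.32. In PFL, Meis3 4 changed to −0.31 and Pbx2 2 to −0.0561 (adjusted p = 0.623), and Meis1 27 was at 0.0603 (adjusted p = 0.807).

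The largest of these differences in tags were at Meis genes. Meis2 24 (chr2:115855782-115856914), past the 3′ end of Meis2, held 0.734, 1.2, 0.894 and 1.37 tags per M in DFL, 1.13, 0.816, 1.14 and 1.04 in PFL, beside 3.08, 3.02, 3.30 and 3.71 in FB, with log2 differences of −1.5 for DFL and −1.47 for PFL against FB. Meis2 5 (chr2:116065551-116067640), before the 5′ end of Meis2, differed by −1.27 and −1.10 and Meis1 8 by −1.51 and −0.55. In each of these, all FB libraries exceeded all limb libraries.

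The starts of the 5 genes differed in how they were accessible. Of the strongest regions at a start, that of Pbx3 had folds of 11.2 to 15.1 and was listed everywhere, as was that of Pbx2 (Pbx2 3, chr17:34591548-34593153) with 3.91 to 5.90. The start of Meis3 (Meis3 9, chr7:16174717-16175892) had folds of 14.0, 13.2, 13.1 and 14.6 in FB. It was listed in only 5 of 8 limb libraries, with 4.95 to 7.16, and in the other limb libraries a call of 3.47 to 4.54 lay below the rank limit. For Meis2, the region ranked strongest was not at the canonical start but at an internal annotated start in the 3′ part of the gene (Meis2 22, chr2:115868885-115870044). This rank rests on the limb libraries alone and does not hold for FB. Meis2 5, which reaches over the 5′ end of the gene, was listed in all 12 libraries. Meis2 22 had folds of 7.95, 10.5, 12.0 and 10.3 in DFL and 6.87, 5.94, 5.42 and 5.03 in PFL. It was listed in no FB library, where 2 had a lower call, of 2.41 and 2.57. Meis2 22 was the 1 region of 104 listed in all limb libraries and no FB library (0.962%, beside 4.82% of all regions). All DFL folds exceeded all PFL folds there, and its tags were 1.93, 2.32, 2.59 and 2.22 per M in DFL and 1.09, 0.854, 0.924 and 0.827 in PFL.

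Presence in the lists was then compared, for all 104 regions. DFL libraries listed 34 to 37 of them, PFL libraries 35 to 42 and FB libraries 61 to 68, with no overlap between FB and limb. In all 4 FB libraries and no limb library, 19 regions were listed (18.3%, beside 8.77% of all regions), 6 around Meis1, 4 around Meis2, 3 around Meis3, 6 around Pbx3 and 0 around Pbx2. In all 12 libraries 20 were listed (beside 17.4%), and 63 had a mixed pattern (beside 64.8%). Only 1 was listed in PFL alone (beside 1.81%), and 0 in DFL alone (beside 1.92%), in DFL with FB (beside 0.394%) or in PFL with FB (beside 0.108%). Tissue by tissue, 22 regions were listed in all FB and no DFL library (21.2%, beside 9.76%) and 20 in all FB and no PFL library (19.2%, beside 10.5%). The reverse held for 2 in DFL (1.92%, beside 9.24%) and 4 in PFL (3.85%, beside 9.47%).

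The mean folds in FB of the 19 regions ranged from 4.17 to 14.1 with a median of 6.60. The strongest was Meis1 6 (chr11:19073942-19074623), 55.4 kb before the 5′ end of Meis1 in an intron of the transcript 4933406G16Rik, with folds of 13.3, 13.6, 14.1 and 15.5. No limb library had a call there at any rank. Meis1 1 (chr11:19118225-19118952), at 99.5 kb before the gene, had folds of 10.7, 10.6, 11.8 and 12.1, and Meis1 2 (chr11:19111811-19112797) had 10.1, 12.4, 10.2 and 10.6, so that 3 strong FB regions lay upstream of Meis1.

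Around Pbx3, the strongest FB region was Pbx3 19 (chr2:34129422-34130418), past the 3′ end, with folds of 9.48, 8.37, 9.5 and 10.0. Pbx3 21 (chr2:34078350-34079070) followed with 7.24, 5.96, 6.08 and 8.92, and Pbx3 10 (chr2:34260540-34261182), in an intron, had 6.81, 6.80, 5.93 and 7.06. Of the 6 Pbx3 regions 4 lay in an intron of Pbx3. Those of Meis2 had lower folds, 4.46 to 7.0 for Meis2 8, 6 and 7 in introns of the gene and 3.99 to 4.97 for Meis2 3 before its 5′ end. The 3 of Meis3 lay in introns of its neighbour Slc8a2, which encodes a sodium and calcium exchanger, with Meis3 7 (chr7:16146700-16147939) at 12.3, 10.7, 12.6 and 13.7.

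Of the 19 regions, 12 had no call in any limb library and 7 had at least 1 call below the rank limit, with a fold of at most 4.83. Among the sequence motifs, TGACAG was found in 5 of 19 (26.3%, beside 29.9% of the 9719 regions of this pattern in the genome), CAGATG in 7 (36.8%, beside 28.7%), ACAAAG in 6 (31.6%, beside 36%), TGATTNAT in 2 (10.5%, beside 6.49%) and CAATAAA in 1 (5.26%, beside 5.21%). With 19 regions, 1 region more or less moves such a share by about 5.26 percentage points.

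**Figure D4:**
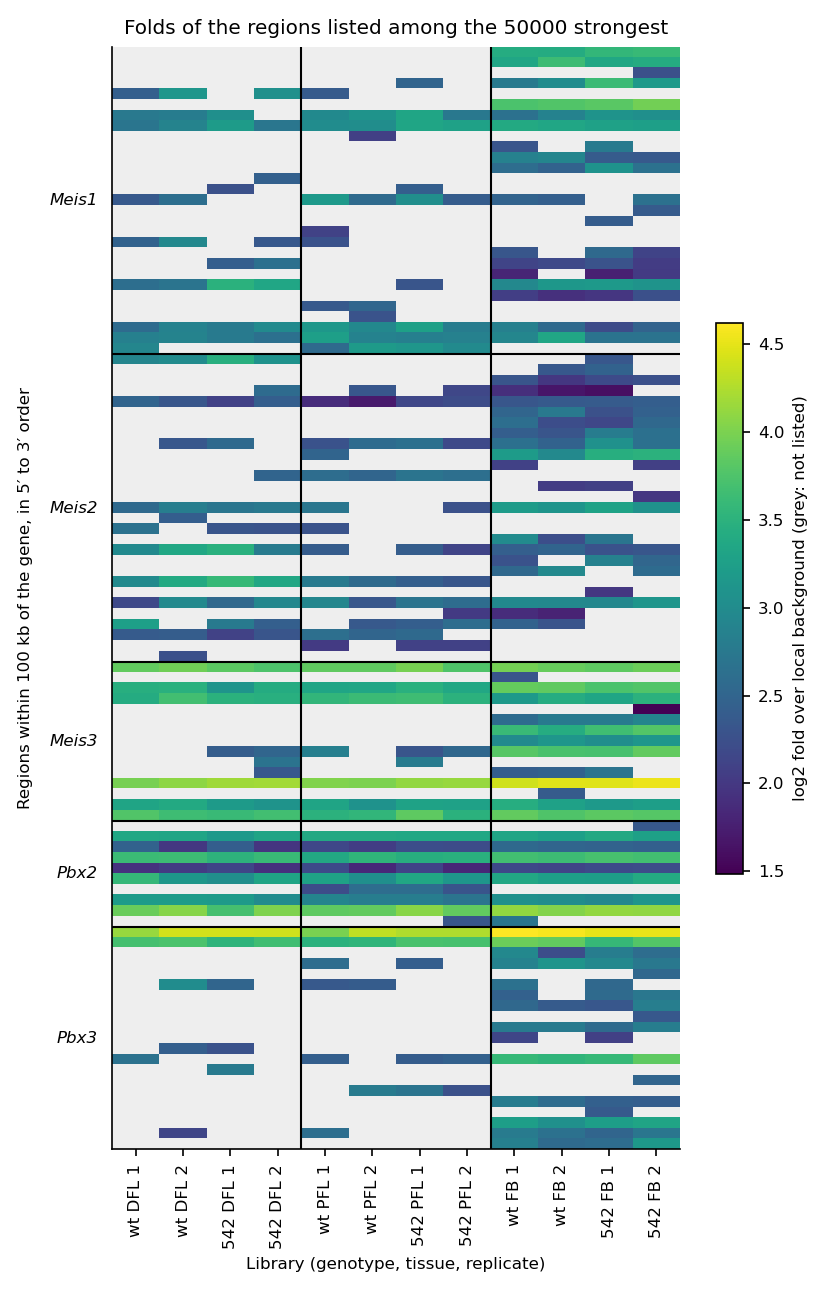
Log2 fold over local background of the 104 regions (in 5′ to 3′ order within each gene) in the 12 libraries, with grey where a region is not among the 50000 strongest of a library. FB libraries list 61 to 68 of the regions and limb libraries 34 to 42, each from a list of 50000 regions. The regions of Pbx2 are listed in nearly the same way in every tissue.

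Between the limb tissues, 1 region of each direction was listed in all 4 libraries of 1 tissue and none of the other. Meis2 1 (chr2:116125481-116126553), 60.1 kb before the 5′ end of Meis2 and between genes, had folds of 7.55, 8.00, 11.1 and 8.52 in DFL. It was listed in no PFL library, where 3 had lower calls of 3.70, 4.22 and 3.99, and in 1 FB library with 5.07, the other 3 FB libraries having lower calls of 3.23 to 4.82. It was the 1 region listed in DFL and not PFL, beside 2.54% of all regions. The reverse case was Pbx2 7 (chr17:34641103-34641671), in an intron of Gm20461 nearer to Fkbpl than to Pbx2, with folds of 4.62, 6.10, 6.09 and 4.94 in PFL, beside 2.02% of all regions. It had lower calls of 3.22 and 3.26 in both wt DFL libraries and of 2.82 to 3.74 in all FB libraries.

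Some further regions of the Meis genes leaned towards DFL or PFL over the other limb tissue without meeting a pattern. Meis1 29 (chr11:18845395-18846368), past the 3′ end of Meis1, had folds of 5.95, 9.15, 8.81 and 7.92 in PFL and was listed in DFL only in wt replicate 1 with 7.62. Meis1 23 (chr11:18916534-18917523), in a Meis1 intron, had 6.15, 6.48, 11.2 and 10.2 in DFL and 7.75, 8.86, 8.99 and 8.56 in FB, but was listed in only 1 PFL library with 4.95. Meis2 19 (chr2:115897404-115898192) had 7.84, 10.2, 11.2 and 6.94 in DFL, above 4.38 to 5.33 in the 3 PFL libraries that listed it and 4.84 to 5.62 in FB. Meis2 12 (chr2:116001008-116001967), in a Meis2 intron, leaned the other way, with 6.11, 5.70, 6.46 and 6.19 in PFL and a listing in DFL only in 542 replicate 2 with 5.66. These regions were picked after their values were seen.

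**Figure D5:**
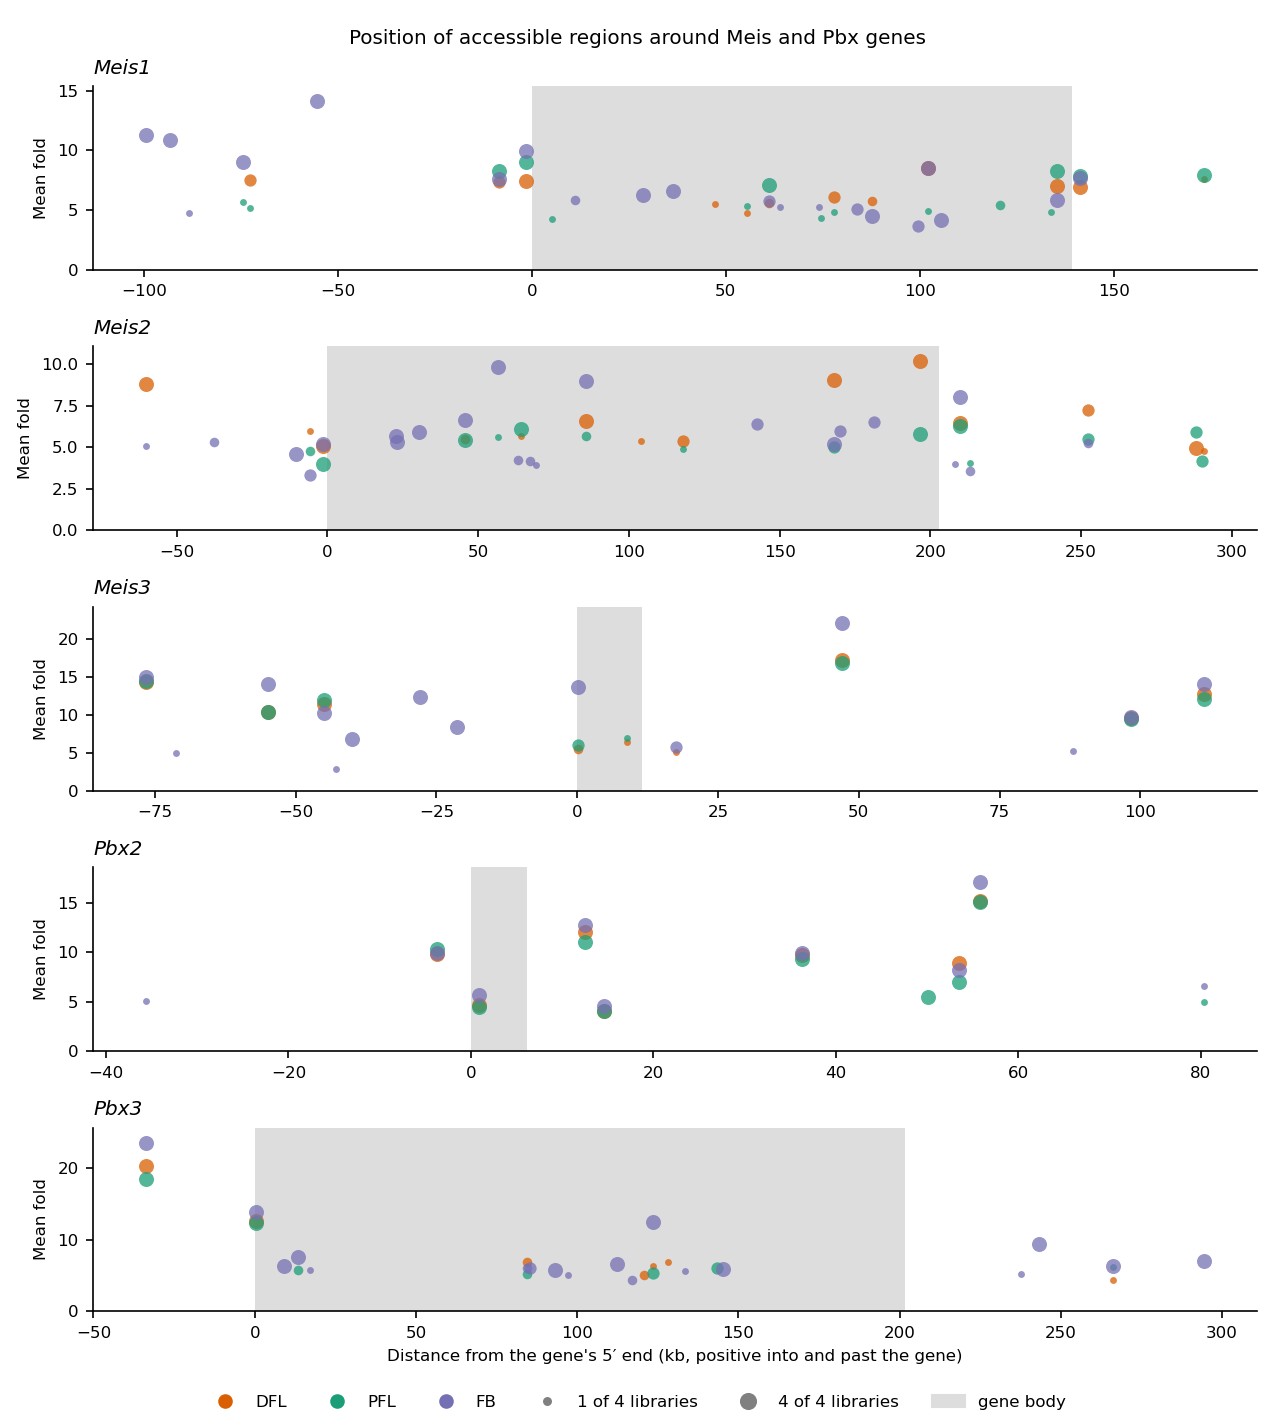
Mean fold of each region by tissue (colours) against the distance of its summit from the 5′ end of the gene in kb, positive into and past the gene, with the gene body in grey. The size of a point gives the number of libraries, 1 to 4, that list the region. Upstream of Meis1 the regions at 55.4, 93.3 and 99.5 kb are those of FB, and within Meis2 the highest limb value is at 196.5 kb in DFL.

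The last comparison asked whether allele 542 altered these loci. In the sums of folds, 0 of 5 genes differed between 542 and wt by limma, beside 1.18% of all genes, and 1 had an unadjusted p under 0.05. That gene was Meis3 with a log2 difference of 0.14 (SE 0.04, adjusted p = 0.139), and the others had 0.01 (Meis1), 0.17 (Meis2), 0.04 (Pbx2) and 0.06 (Pbx3). The median was 0.06, beside 0.01 over all genes. The tag sums gave 0 of 5 in either direction as well, beside 3.56% of all genes called higher and 8.97% called lower, with 1, Meis2, at an unadjusted p under 0.05 (0.21, adjusted p = 0.123). Of the 20 regions listed in every library, 0 differed in folds (1 with an unadjusted p under 0.05, beside 0.637% of all regions called) and 0 in tags (2 with an unadjusted p under 0.05, beside 5.56% called).

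Within single tissues and in the interaction of tissue and genotype, no gene passed the test on folds, beside 0.953% of all genes called in DFL, 0.402% in PFL and 0.124% in FB, with Meis3 alone at an unadjusted p under 0.05 in DFL and in PFL. For the interaction these shares were 0.0596% (DFL against PFL), 0.0645% (DFL against FB) and 0.0248% (PFL against FB), with 0 of 5 genes at an unadjusted p under 0.05. The tag sum of Pbx2 was lower in 542 than in wt in DFL, with 38.5 and 41.6 per M in wt against 32.1 and 34.5 in 542. The log2 difference was −0.26 (SE 0.06, adjusted p = 0.0165), beside 20.1% of all genes called lower and 22.5% called in either direction there, and a median of −0.14 over all genes. The difference of this effect from that in PFL was −0.35 (adjusted p = 0.143), and no gene of all was called in that interaction of tag sums (0%). The tag sums of PFL and FB gave 0 of 5, beside 1% and 0.149% of all genes called. The total of tags was 54.5 and 44.0 M in these wt libraries and 41.4 and 40.2 M in those of 542, and the part of depth was not tested.

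Listing by genotype gave few regions. Listed in all 6 libraries of 1 genotype and in none of the other were 0 regions in either direction, beside 0.0126% and 0.0153% of all regions. Within DFL, Meis1 15 was listed in both wt libraries and neither 542 library (beside 2.55% of all regions), and Meis1 21 and Meis3 9 showed the reverse (beside 2.07%). Within PFL, Meis1 25 and Pbx3 6 were listed in wt alone (beside 2.69%) and 0 regions in 542 alone (beside 2.14%). In FB, Meis2 25 and Meis2 26 were listed in wt alone (beside 1.66%) and 0 in 542 alone (beside 1.57%). Meis2 lies on chromosome 2 beyond the insertion, where positions of 542 regions were shifted by 4214 to 4222 bp before correction, and after it the summits of 542 and wt around Meis2 differed by a median of −4.5 bp. Around the limb mesenchyme gene Tbx5, which is no Meis or Pbx gene, the sum of folds over all tissues was lower in 542 than in wt by limma (log2 difference −1.26, adjusted p = 0.034). Of all genes, 1.18% were called in that comparison. Within single tissues, 1 of the 3 limb mesenchyme genes was called lower in 542 in FB, and 0 were called in DFL or in PFL. The part of Tbx5 in the comparison of genotypes was not tested.

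Of the other genes of these pathways, 10 further TALE genes showed both directions. Between DFL and PFL, Irx2 (0.82) and Pknox2 (0.17) were higher in DFL and Irx6 (−1.05) was lower, in limma on the sums of folds, beside 4.65% of all genes called higher and 8.33% called lower, and the median over the 10 genes was 0.0053. Against FB, 4 of 10 were higher and 3 lower in DFL, beside 20% and 23.4% of all genes, and 1 was higher and 2 were lower in PFL, beside 24.1% and 19.8%, with the tendon factor Mkx at 1.21 and 1.43. Pknox2, whose product is a PBX partner like MEIS, was lower in both limb tissues, at −0.23 and −0.40. Of a list of 12 genes, made up of 8 HOX genes, the proximal limb gene Shox2 and the retinoic acid genes Aldh1a2, Rarb and Cyp26b1, 12 were higher in DFL and 12 in PFL than in FB (beside 20% and 24.1% of all genes), with medians of 1.66 and 1.47, though the windows of neighbouring Hox genes hold the same regions. Among them were Aldh1a2, which makes retinoic acid (1.36 and 1.24), and Cyp26b1, which degrades it (1.2 and 1.67). Between DFL and PFL 0 of 12 passed the limma test, with 1, Shox2, at an unadjusted p under 0.05, and the median was 0.0955.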

How the data were processed

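ATAC-seq libraries were trimmed with cutadapt, mapped with Bowtie, filtered and freed of duplicates, and peaks were called per library with MACS2 without a control library, as the authors state. The deposited files give, for each summit, a score, the fold (a ratio of tags to local background), and the −log10 p-value and −log10 q-value. Replicates were not pooled. The wt libraries were mapped to mm10 and the 542 libraries to a mutant genome, whose positions beyond the insertion on chromosome 2 were shifted back.

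The 50000 strongest regions of each library were used, since the number of deposited regions differed between libraries, so a region not listed could still be called at a lower rank. Tags and local background were recovered from the deposited fold and p-value (whole numbers for at least 99.997% of values, tolerance 0.01 on −log10 p), and the total of tags, the depth, from the genome-wide background (37.5 to 70.7 M tags, M standing for mega). Folds were divided by the library's median and summed over the regions within 100 kb of each coding gene, and log2(sum + 1) was fitted with limma 3.58.1 in R 4.3.3 over 20151 genes, with 6 groups of 2 libraries, an intensity trend and Benjamini-Hochberg adjustment at 0.05. Fold differences on this scale understate the change of low sums. Tags per M were likewise scaled to the library's median before they were summed. Regions listed in all 12 libraries were fitted in the same way on log2 values. Replicates are separate pools of embryos. Windows of neighbouring genes share regions, and the tissue comparisons share libraries. Named were the 5 genes, the strongest region at a start of each, up to 3 regions per gene and pattern, up to 3 common regions per gene and contrast, and genes of other lists past the threshold. Regions named beyond this were picked after their values were seen. The genes and lists were chosen with earlier results of these data known, and the tag measures were added after the data had been seen. In simulated data with normal noise, 82.1% of genes changed by a log2 of 1 and 67.2% of those changed by 0.5 were recovered in the fit over genes, with 6.82% false calls. Smaller changes were not simulated. Sequences were read from GRCm38. Python 3.11.15 with numpy 2.4.6, pandas 2.3.3 and scipy 1.17.1 was used. An item of a marker list is not reported here.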

Additional observations from a re-analysis of the deposited data

Results flagged for a closer look

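In 7 of 75 groups of 4 libraries, the fold of 1 region in 1 library lay far from the other libraries of its tissue, where chance gives about 1 in 20 groups. The gap as a share of the group's range was 0.929 for Meis1 28 in PFL, 0.841 for Meis3 3 in DFL, 0.852 for Meis3 15 in PFL, 0.863 for Pbx2 4 in DFL, 0.907 for Pbx2 8 in DFL, 0.887 for Pbx2 9 in PFL and 0.915 for Pbx3 1 in DFL.

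In the earlier wt DFL library, which entered only the alternative fits named as having it added, 2 of 37 listed regions around the genes were listed in none of the 4 DFL libraries. They were chr2:34287534-34288079 near Pbx3 with a fold of 6.75 and chr2:116075551-116076377 near Meis2 with a fold of 6.35.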

How the results depend on the processing

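Counts of genes called by summed folds between DFL and PFL went from 0 to 1 with the 20000 strongest regions, to 1 with folds of at least 5 and to 2 with tags per M, and to 0 to 1 with 1 library left out (1 without wt PFL replicate 1). With folds the gene gained was Meis2, higher in DFL, and with tags Meis1 and Pbx3, lower. Of all genes, 2617 of 20151 were called in the main fit, 1576 of 20139 without wt PFL replicate 1 and 5180 of 20151 with tags. By summed tags they went from 2 to 1 without scaling and were 1 to 2 with 1 library left out. Of the regions listed everywhere, folds gave 1 (all deposited regions), 4 (tags) and 0 to 1 (1 library left out, 1 without wt PFL replicate 2) for DFL against PFL. For DFL against FB they gave 9 (all deposited regions), 11 (tags) and 1 to 5 (lower without 542 FB replicate 1, wt DFL replicate 2 or wt FB replicate 2), and for PFL against FB 3 (earlier library added), 9 (all deposited regions), 9 (tags), 8 (no centring) and 2 to 6 (lower without 1 of 542 FB replicates 1 and 2, wt DFL replicate 1 and wt FB replicate 1). Tags gave 15 for PFL against FB without centring. Genotype gave 2 genes with all deposited regions, Meis2 and Pbx2, both lower in 542. Within tissues or in the interaction it gave 2 with all deposited regions and 1 with tags. For most of these settings the share of all genes or regions called is not given beside the count. The counts therefore show only how calls depend on the setting.

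With all deposited regions, PFL only held 0 regions, DFL and PFL 2 and PFL and FB 1. With the 20000 strongest regions, DFL only held 1, PFL only 0, FB only 7, DFL and PFL 0 and PFL and FB 1. With at least 50% of a region covered, a setting added after the data were seen, DFL and PFL held 0, DFL and FB 1 and all 3 tissues 12. With replicate 1 or 2 left out, DFL only held 0 to 3, PFL only 3 to 3, DFL and FB 0 to 1, DFL and PFL 1 to 2 and PFL and FB 0 to 1. Regions listed in 1 genotype were 12 (DFL), 10 (PFL) and 8 (FB) with all deposited regions, 1 in each with the 20000 strongest, 4 in PFL with coverage, and 12 to 17, 12 to 15 and 13 to 21 with a replicate left out. The overlap share planned at first could not change any region by its construction and was replaced. Shares of all regions are not given beside these counts, which show only how the listing depends on the setting.

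Signs turned in values that had not been called in the main fits, apart from those named with tags. Between DFL and PFL, Meis1 had 0.0053 (folds of at least 5), Meis3 0.13 and Pbx3 0.26 (all deposited regions), Pbx2 0.0313 and Pbx3 0.0441 (20000 strongest), Pbx2 0.0058 (folds of at least 5), Pbx3 2 0.0377 (no centring) and −0.0351 to 0.0224 (1 library left out), and the tags of Meis3 0.00064 (no scaling). Against FB, Pbx2 had 0.0336 (20000 strongest), 0.0262 (10 kb) and −0.0771 to 0.00696 (1 library left out) in DFL, and −0.0638 (folds of at least 5), −0.11 (no scaling) and −0.18 (tags) in PFL. With tags, Meis1 27 had −0.56 and Meis3 4 −0.32 in DFL, and Meis3 4 −0.31 and Pbx2 2 −0.0561 in PFL. Between 542 and wt, all deposited regions gave −0.13 (Meis1), −0.22 (Meis2), −0.0171 (Meis3), −0.29 (Pbx2) and −0.21 (Pbx3). In this setting Meis2 (adjusted p = 0.0301) and Pbx2 (adjusted p = 0.0073) were called lower in 542 by limma, against the sign of their main fits. The number of regions gave −0.0638 (Meis1), −0.00597 (Pbx2) and −0.0215 (Pbx3), no scaling −0.0466 (Meis1) and −0.0128 (Pbx2), folds of at least 5 −0.0456 (Meis1) and tags −0.0405 (Pbx2). Leaving out 1 library gave −0.0677 to 0.0846 (Meis1) and −0.0373 to 0.16 (Pbx3). Summed tags without scaling gave −0.0344 (Meis1), −0.042 (Meis3) and −0.0473 (Pbx3), and leaving out 1 library −0.0393 to 0.067, −0.022 to 0.0392 and −0.0464 to 0.0469. The lower sum of folds of Meis2 in DFL than in FB was no longer called with the 20000 strongest regions, with folds of at least 5 or without the filter on low sums. The causes were not tested. At these depths a region that is not listed may still be accessible, since calls lay below the rank limit. Replicate numbers did not pair the libraries (correlations of −0.112 to 0.0829), and with a replicate block the counts stayed at 0 by folds and 2 by tags for DFL against PFL, 4 and 5 for DFL against FB and 4 and 5 for PFL against FB.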
